A study of Mus musculus with 6 samples.

Results

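Motile cilia genes were described here in ribosome-bound RNA of PNOC-expressing cells of the mouse preoptic area, set against total RNA of the same tissue. They were chosen by name, as the protein-coding genes named Cfap, Dnah, Dnai, Dnaaf, Rsph or Spag in the deposited table, together with Foxj1. The rule found 80 genes of 27884 in the table, of which 17402 are protein-coding. The rule itself uses names and no measured value. The names cover the axoneme, its assembly factors and a few genes whose names share a prefix but whose products have other known roles, so the set is wider than the ependyma, the ciliated lining of the ventricles that borders the preoptic area.

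The IP group held 3 libraries of RNA bound to GFP-tagged ribosomes, captured with anti-GFP antibodies on magnetic beads. The Input group held 3 libraries of total RNA from the same tissue, processed in parallel. All 6 libraries came from female NuTRAP::Pnoc-Cre mice aged 17 to 18 weeks, with preoptic punches of 3 animals pooled for each replicate number, so the Input tissue carried the transgenes too. NuTRAP is a Cre-dependent allele that tags ribosomes, and any cell that has ever expressed Cre from the Pnoc driver carries the tag. Input contains every cell type of the punch, PNOC cells included. Total counts lay between 48204567 and 51380354 in IP and between 49068467 and 53056642 in Input. Values per library are given below in the order of replicates 1, 2 and 3.

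Motile cilia beat by the sliding of microtubule doublets against each other, driven by outer and inner dynein arms. Radial spokes and a central pair apparatus coordinate the arms, and cytoplasmic assembly factors build the arms before they enter the cilium. In the brain the cells with bundles of such cilia are ependymal cells and, to a lesser extent, choroid plexus cells, while neurons carry a single primary cilium that lacks dynein arms. Foxj1 is the forkhead transcription factor that switches on the motile cilia programme, and RFX factors bind X-box motifs near the starts of ciliary genes.

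Markers of the ependyma that are not parts of the axoneme were set beside the members. Their list was chosen with earlier results of these data known, so it is no independent check. Of 10 such genes tested, 8 fell in IP and none rose, against 17.1% lower and 12.9% higher of all genes tested. The median log2 fold change was -2.17, although S100b, Sox9 and Pltp on this list are also astrocyte genes. Fam216b, which is not, had a mean of 0.122 ± 0.111 CPM in IP and 3.28 ± 0.138 CPM in Input (SD, n = 3 each; CPM are read counts per library size, scaled with TMM factors). Pnoc itself, the driver of the tag, was at 44.0 ± 3.39 CPM in IP and 10.6 ± 2.88 CPM in Input, a log2 fold change of 2.06 ± 0.22 (SE; edgeR adjusted p = 0.000472). Most markers of the ependyma were thus detected in Input and lower in IP. Cd24a and Hdc did not pass and lay the other way, with log2 fold changes above 0, at most 0.79. Rose, fell and passed refer to this test without a pairing term unless another is named. All 7 astrocyte markers fell as well, and 4 of 7 neuron markers rose. In bulk RNA, fewer cells of a type and less RNA per cell cannot be told apart.

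Promoter sequences show the X-box in the members that carry it, since it is the motif of the RFX factors described further on. RefSeq promoter windows (build GRCm38.p6, 250 bases before to 50 after a gene's start) were found for 60 of the 80 members, 58 by symbol and 2 by an older symbol, in 65 windows. The X-box was searched as the arms GTNNCC and GGNAAC with 2 bases between them, on both strands. It stood in 7 of the 65 windows, or 10.8%, against 1.29% of all 32851 windows in the table and 1.37% of the 21262 windows of coding genes. The single arm GGNAAC, on either strand and overlapping the X-box, stood in 46 windows, or 70.8%, against 45.3% of all. The forkhead core GTAAACA stood in 3 windows, or 4.62%, against 3.65% of all. A match is a description of letters and not a bound site, and the windows of 1 gene can overlap. Each of the following stretches is written 5′ to 3′ on the gene's strand with the X-box match in capitals and 8 bases on either side.
Cfap206: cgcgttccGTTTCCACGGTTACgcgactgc
Cfap20dc: gcccctcaGTTGCCTGGGCAACggctcagc
Cfap298: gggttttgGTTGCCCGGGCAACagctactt
Dnaaf5: tagcgccgGTTCCCTTGGAGACaggcaacg
Dnaaf6b: acaaagttGTTACCCGGGCAACagagagac
Spag5: ctcactcgGTAACCGGGGGAACggagccac

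The matches in Cfap20dc, Cfap298 and Dnaaf6b read as X-boxes on both strands, that in Spag5 on the gene's strand, and those in Cfap206 and Dnaaf5 on the opposite strand. Spag6l holds the other match, which begins after its start and is not printed. Of these 7 genes, edgeR tested 6 and called Cfap20dc, which was higher in IP. Dnaaf6b was too low for that test, and DESeq2 called it lower (adjusted p = 0.0178).

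The 250 bases before the start are shown for the outer arm intermediate chains Dnai1 and Dnai2, both lower in IP, and for Cfap20dc, higher in IP. The Dnai1 stretch is chr4:41569544-41569793 on the plus strand, that of Dnai2 is chr11:114727169-114727418 on the plus strand, and that of Cfap20dc is chr14:8666291-8666540 on the minus strand, all on GRCm38.p6. Capitals mark each match of the single arm or the X-box on either strand.
Dnai1: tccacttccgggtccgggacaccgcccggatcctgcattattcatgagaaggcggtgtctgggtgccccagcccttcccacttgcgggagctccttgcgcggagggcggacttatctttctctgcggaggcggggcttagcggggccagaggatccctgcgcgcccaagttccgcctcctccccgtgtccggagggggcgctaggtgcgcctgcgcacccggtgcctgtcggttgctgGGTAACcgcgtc
Dnai2: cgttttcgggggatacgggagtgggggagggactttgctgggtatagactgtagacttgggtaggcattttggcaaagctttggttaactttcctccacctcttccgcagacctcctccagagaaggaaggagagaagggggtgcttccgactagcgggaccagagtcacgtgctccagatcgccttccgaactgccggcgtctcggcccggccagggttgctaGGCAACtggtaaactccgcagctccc
Cfap20dc: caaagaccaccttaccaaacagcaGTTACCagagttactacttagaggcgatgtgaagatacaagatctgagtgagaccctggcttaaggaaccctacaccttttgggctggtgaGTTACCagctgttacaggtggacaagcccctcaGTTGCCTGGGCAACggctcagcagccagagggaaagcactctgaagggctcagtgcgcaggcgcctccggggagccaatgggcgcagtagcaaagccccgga

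Dnai1 and Dnai2 each hold 1 match of the single arm, close to the start, and no full X-box. Cfap20dc holds 2 further matches of the arm upstream of its X-box. None of the 3 stretches holds the forkhead core. All 3 stretches hold the single arm, and any relation of these letters to the direction of change was not tested.

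Across the set, members differed in direction and size, and how the share called lower in IP compared with all genes depended on the tool. Of the 80 members, 77 passed the low-count filter and were tested. In IP 13 were lower and 5 were higher than in Input (edgeR, adjusted p under 0.05), and 59 did not pass. Of all 18640 genes tested, 17.1% were called lower and 12.9% higher. The members' shares of 16.9% lower and 6.49% higher are to be read against these, and by edgeR the share called lower lies at the background. The median log2 fold change was -0.58 over the tested members, against -0.07 over all genes tested, and 56 members lay below 0 and 21 above. The 3 IP values lay wholly below the 3 Input values for 28 tested members, against 26.0% of all genes, and wholly above for 9, against 21.7% of all genes. With the replicate as a block, 16 members were lower and 7 higher, against 19.4% and 15.2% of all genes. DESeq2 on the same counts called 22 of the 80 members lower and 7 higher, or 27.5% and 8.75%, against 16.7% and 12.8% of all genes with an adjusted p. The authors' deposited table, also made with DESeq2, calls 22 members lower and 7 higher. Beside the 13 of edgeR, DESeq2 called Cfap54, Spag16, Spag17, Spag6, Dnaaf6b, Dnah6, Dnah11, Dnai3 and Dnai4 lower, and beside the 5 higher ones Dnaaf2 and Rsph9. At an unadjusted p under 0.05 edgeR had 25 members lower and 7 higher, against 23.3% and 18.4% of all genes. Without both libraries of replicate 3, 1 member was lower, Dnaaf9, and none was higher, in a fit that called 742 of all genes lower and 133 higher.

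**Figure D1:**
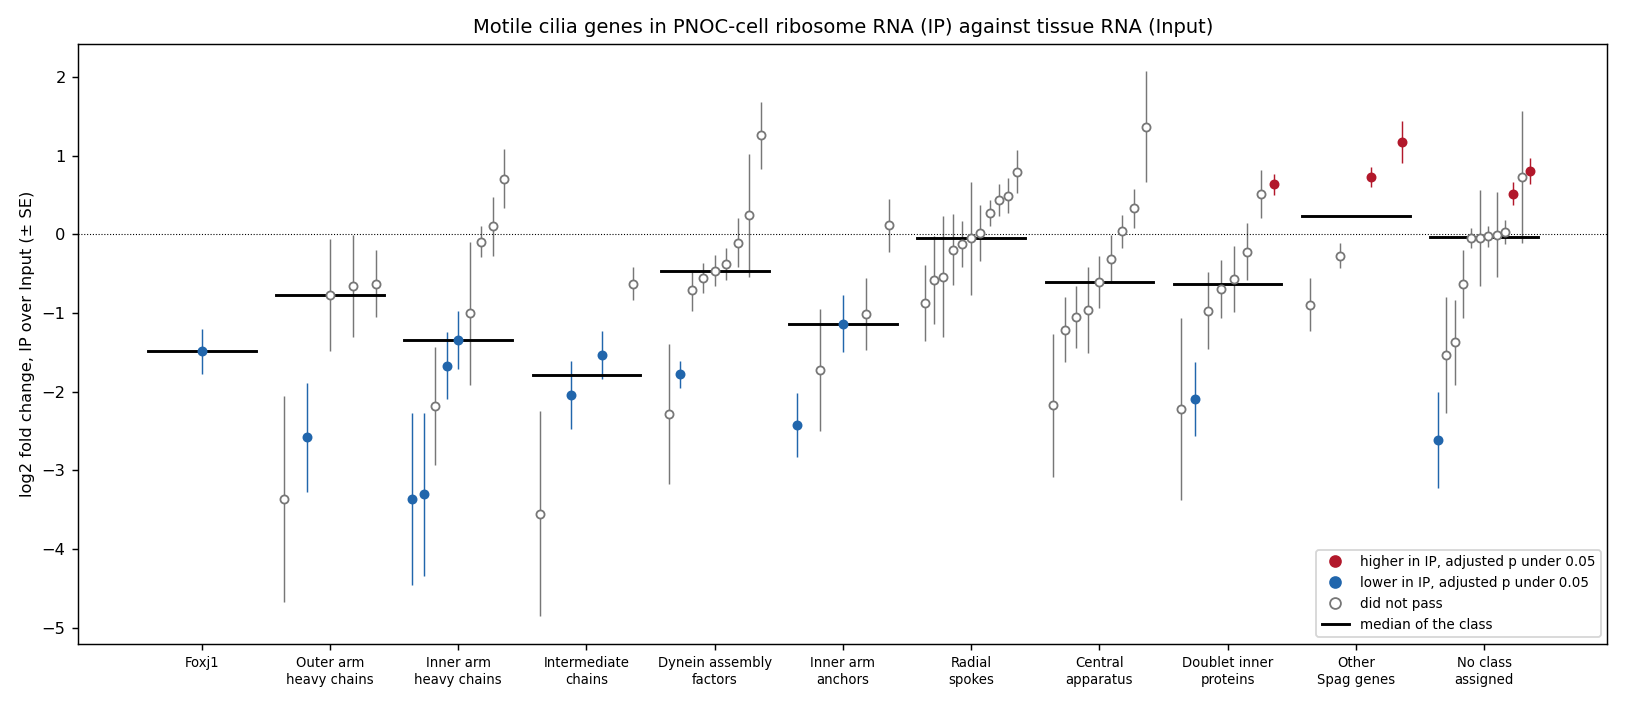
Log2 fold change of IP over Input (vertical axis, ± SE) of the 77 tested members by role in the cilium. Filled points passed an adjusted p of 0.05 and black bars are class medians. The intermediate chains have the lowest class median, -1.79, and the radial spokes lie around 0, with a median of -0.05.

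Foxj1 (ENSMUSG00000034227, chromosome 11, 116221530 to 116226225, minus strand, mm39) was lower in IP. It had 5.88, 4.45 and 4.03 CPM in IP, against 12.2, 9.75 and 18.3 CPM in Input. Every IP library lay below every Input library, and replicate 3 had both the lowest IP and the highest Input value. The means were 4.79 ± 0.973 CPM in IP and 13.4 ± 4.43 CPM in Input, a fall of 2.80-fold with a log2 fold change of -1.49 ± 0.28 (edgeR adjusted p = 0.00619). Without any one library the log2 fold change stayed between -1.66 and -1.15 and the call held. Without both libraries of replicate 3 it was -1.08 with an adjusted p of 0.0998.

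The dynein intermediate chains, which anchor and assemble the arms, had the lowest median of any class with more than 1 member. All 4 had IP values wholly below Input, against 26.0% of all genes tested. By the test 2 of 4 were lower, against 17.1% of all genes. Dnai1, an outer arm chain mutated in human primary ciliary dyskinesia (ENSMUSG00000061322, chromosome 4, 41569775 to 41638158, plus strand), had 2.11, 1.54 and 2.14 CPM in IP, against 3.54, 11.02 and 9.30 CPM in Input. Its log2 fold change was -2.04 ± 0.43 (edgeR adjusted p = 0.00903), with the Input libraries far more spread than the IP libraries. Dnai2, its partner in the outer arm (ENSMUSG00000034706, chromosome 11, 114618234 to 114648715, plus strand), had 1.51, 1.65 and 1.87 CPM in IP, against 3.96, 4.56 and 6.09 CPM in Input, and fell with a log2 fold change of -1.53 ± 0.30 (edgeR adjusted p = 0.00719). Both kept the call without any one library, but without both libraries of replicate 3 the adjusted p was 0.116 for Dnai1 and 0.0975 for Dnai2. Without those of replicate 2 it was 0.0933 for Dnai1 and 0.0576 for Dnai2.

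Dnai3 and Dnai4, chains of an inner arm dynein, did not pass by edgeR without the block but did by DESeq2, with adjusted p of 0.0204 for Dnai3 and 0.0475 for Dnai4. Dnai3 had 0, 0.195 and 0 CPM in IP, against 0.657, 0.937 and 0.754 CPM in Input, with an adjusted p of 0.0721 by edgeR and 0.0310 with the replicate block. Dnai4 had 9.13, 6.66 and 9.61 CPM in IP, against 14.7, 12.1 and 12.4 CPM in Input, with an edgeR adjusted p of 0.0521, and 0.0376 with the block. The groups do not overlap for either gene. A count of 3 corresponds to 0.0551 to 0.0651 CPM in these libraries, so Dnai3 was near the limit of detection in IP. Dnai3 passed the low-count filter through Input alone and so had to lie below 0.

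**Figure D2:**
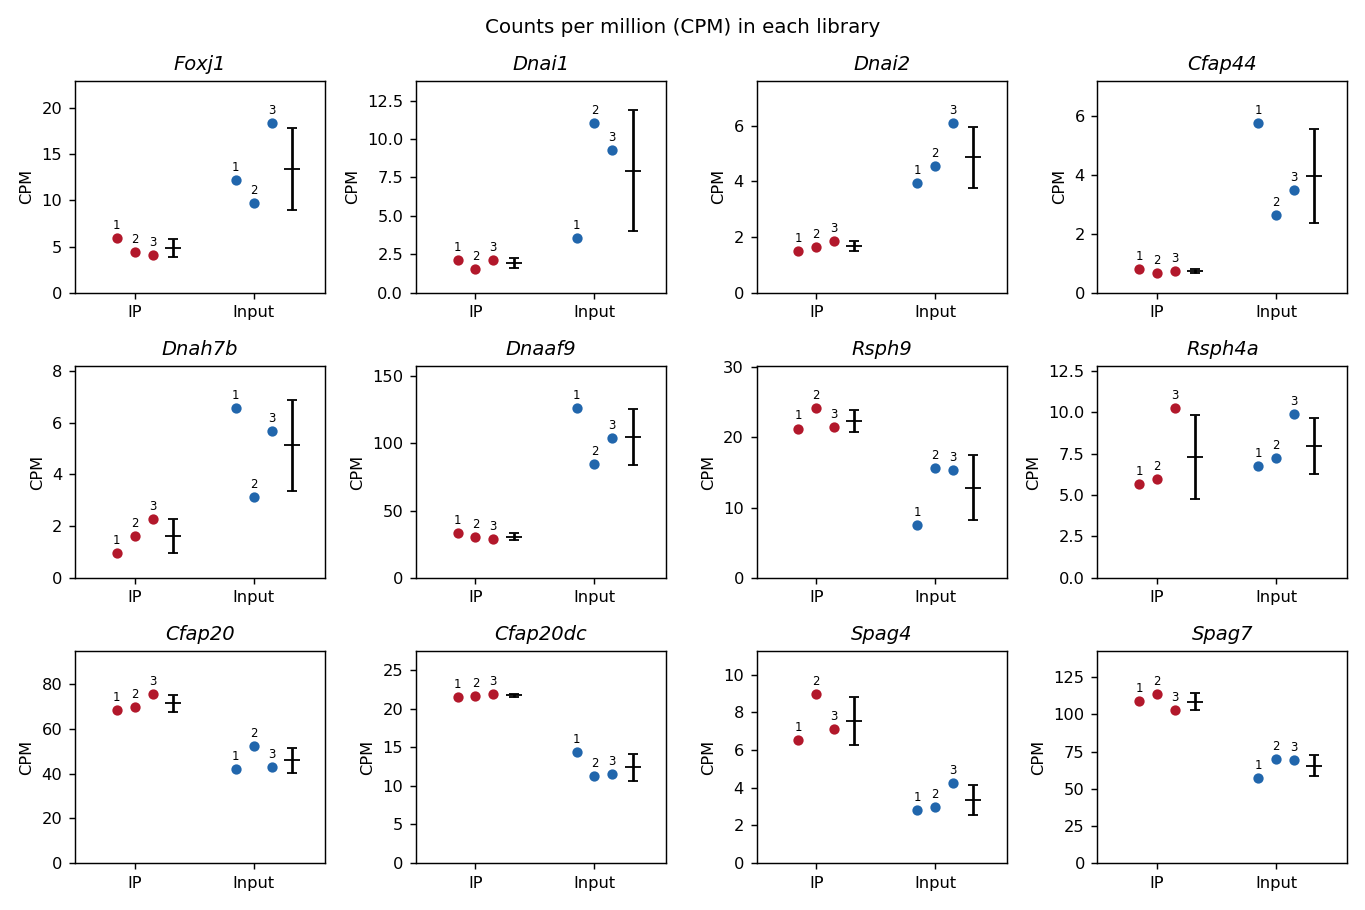
CPM in each library (points) with mean and SD for 12 members, IP left and Input right in each panel. Foxj1, Dnai1, Dnai2, Cfap44, Dnah7b and Dnaaf9 have all IP points below all Input points, Rsph9, Cfap20, Cfap20dc, Spag4 and Spag7 have all IP points above, and Rsph4a overlaps.

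Dynein heavy chains are the motors of the arms, very long transcripts that were rare in this tissue. Of the 5 outer arm heavy chains 1 fell and none rose, and of the 9 inner arm heavy chains 4 fell and none rose. Counted together with the intermediate chains and Dnah14, 7 of 19 dynein arm chains fell, 17 of 19 lay below 0, and the median log2 fold change was -1.53. Over all 18640 genes tested, 17.1% were called lower and 12.9% higher, 9924 lay below 0, and the median was -0.07. Dnah3, Dnah8, Dnah11, Dnah12 and Dnai3 had means of at most 0.234 CPM in IP. They passed the low-count filter through Input alone and so had to lie below 0. The counts therefore describe the chains that passed and support nothing further. Dnah7b (ENSMUSG00000041144, chromosome 1, 46105475 to 46412710, plus strand) had 0.959, 1.605 and 2.26 CPM in IP, against 6.55, 3.14 and 5.68 CPM in Input, with a log2 fold change of -1.67 ± 0.42 (edgeR adjusted p = 0.0193). Its near copies Dnah7a and Dnah7c did not pass. Dnah7a was at 8.36 ± 1.71 CPM in IP and 5.11 ± 2.62 CPM in Input, and Dnah7c at 1.93 ± 0.417 CPM in IP and 1.80 ± 0.406 CPM in Input (SD, n = 3 each). How reads shared by such copies were assigned is not given in the sources used here, so the split among the 3 is uncertain. Without IP replicate 1, IP replicate 2 or Input replicate 3 the adjusted p of Dnah7b was 0.0507, 0.0616 or 0.0726.

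Dnah2, an inner arm motor, had 1.13, 1.56 and 1.35 CPM in IP, against 4.44, 2.42 and 3.40 CPM in Input, with a log2 fold change of -1.34 ± 0.36 (edgeR adjusted p = 0.0248). Dnah8, best known from the outer arms of the sperm tail, had 0.107, 0.434 and 0.161 CPM in IP, against 0.927, 1.95 and 1.35 CPM in Input, with a log2 fold change of -2.58 ± 0.70 (edgeR adjusted p = 0.0247). The groups do not overlap for either gene, but both calls depended on single libraries. With 1 library left out, Dnah2 passed without Input replicate 2 and did not pass without any of the other 5, with an adjusted p of up to 0.0795. Dnah8 did not pass without IP replicate 1, IP replicate 3, Input replicate 2 or Input replicate 3, with an adjusted p of up to 0.0832.

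Dnah12 and Dnah3, both inner arm heavy chains, rested on few reads. Dnah12 had 6, 0 and 11 counts in IP, against 88, 34 and 63 counts in Input, with an edgeR adjusted p of 0.0425. Dnah3 had 3, 8 and 0 counts in IP, against 68, 32 and 31 counts in Input, with an edgeR adjusted p of 0.0481. Both lost the call without any one of the 6 libraries, with adjusted p between 0.0506 and 0.116 for Dnah12 and between 0.0550 and 0.140 for Dnah3. The groups were nevertheless wholly apart for both. Exons of Dnah3 overlap Lyrm1 on the opposite strand over 11.1% of their bases, and whether counting used strand is not given.

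The abundant heavy chain stood apart from these. Dnah1, an inner arm motor, had 21.1, 17.8 and 21.2 CPM in IP, against 16.1, 25.4 and 22.6 CPM in Input, and a log2 fold change of -0.09 ± 0.20 (edgeR adjusted p = 0.753). Per length it was the highest of the heavy chains, at 1.53 FPKM in IP and 1.61 FPKM in Input (mean of the authors' values), while Dnah7b was at 0.0805 FPKM in IP and 0.251 FPKM in Input. Exons of Dnah1 overlap Bap1 on the opposite strand over 9.26% of their bases, and the share of reads this adds was not tested. Among outer arm chains, Dnah5 had 1.30, 1.30 and 0.846 CPM in IP, against 3.96, 0.441 and 1.49 CPM in Input, so that Input replicate 2 lay below every IP library. Dnah9 had a mean of 1.52 ± 0.501 CPM in IP and 2.35 ± 0.765 CPM in Input, and its groups overlap too. Dnah11 had no counts in IP replicates 1 and 3 and 0.195 CPM in IP replicate 2, against 0.637, 0.624 and 0.793 CPM in Input, with an edgeR adjusted p of 0.0867, and 0.0492 with the replicate block. Dnah6, Dnah10, Dnah14 and Dnah17, the other heavy chains, did not pass by edgeR, and all had log2 fold changes below 0. DESeq2 called Dnah6 lower (adjusted p = 0.0263).

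Inner arm anchors, defined by studies of Chlamydomonas and Tetrahymena, tie the inner arm dyneins to the doublets. Of 5 tested, 2 fell and none rose, against 17.1% lower and 12.9% higher of all genes tested. Cfap44, part of the tether of an inner arm dynein (ENSMUSG00000071550, chromosome 16, 44215159 to 44302791, plus strand), had 0.789, 0.672 and 0.746 CPM in IP, against 5.76, 2.64 and 3.50 CPM in Input. The IP libraries were close to each other and far below all Input libraries, with a log2 fold change of -2.43 ± 0.40 (edgeR adjusted p = 0.00354). Cfap43, its partner in the tether, did not follow, at 4.42 ± 1.33 CPM in IP and 4.08 ± 1.06 CPM in Input (SD, n = 3 each). Cfap100 had 1.28, 1.34 and 1.19 CPM in IP, against 2.74, 3.53 and 2.11 CPM in Input (edgeR adjusted p = 0.0435). With the replicate block its adjusted p was 0.0597, and without any one library it was between 0.0678 and 0.144. Exons of Cfap100 overlap Zxdc on the opposite strand over 15.02% of their bases. The call for Cfap44 held without any one library, and without both libraries of replicate 3 its adjusted p was 0.0693.

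Assembly factors mount the dynein arms in the cytoplasm. Of 9 tested, 1 fell and none rose, against 17.1% lower and 12.9% higher of all genes tested. The median log2 fold change was -0.46. Dnaaf9, the counterpart of Tetrahymena Shulin that packages outer arms (ENSMUSG00000027309, chromosome 2, 130548120 to 130748326, minus strand), had 33.3, 30.1 and 28.5 CPM in IP, against 126, 84.6 and 104 CPM in Input. The means were 30.6 ± 2.43 CPM in IP and 105 ± 20.7 CPM in Input, a log2 fold change of -1.78 ± 0.17 (edgeR adjusted p = 0.000318), which is the smallest p of the 77. It was the one member that kept its call without any one library and without any one replicate number. Per length it was at 2.87 FPKM in IP and 9.62 FPKM in Input, beside 1.82 FPKM in IP and 5.02 FPKM in Input for Foxj1.

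Spag1, Dnaaf5 and Dnaaf10, all needed for arm assembly in the cytoplasm, were lower in every IP library than in every Input library but did not pass. Spag1 had 9.94, 8.98 and 7.66 CPM in IP, against 13.7, 11.6 and 13.8 CPM in Input (edgeR adjusted p = 0.0553). Dnaaf2 lay the other way, at 2.58, 1.65 and 1.95 CPM in IP, against 0.966, 0.973 and 0.638 CPM in Input (edgeR adjusted p = 0.0538). Its groups do not overlap either. Exons of Dnaaf2 overlap the coding genes Gm49383 and Gm49384 on the same strand, over 17.5% and 16.2% of their bases. They also overlap the non-coding 9330151L19Rik on the opposite strand over 26.4%. The share of reads these overlaps add was not tested. Cfap298 and Cfap300 had overlapping groups. Dnaaf1 was under 1 CPM on average in both groups, at 0.135 ± 0.0877 CPM in IP and 0.665 ± 0.378 CPM in Input. It too was lower in every IP library than in every Input library and did not pass. Its log2 fold change of -2.28 ± 0.89 was the largest fall of the class (edgeR adjusted p = 0.0863).

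**Figure D3:**
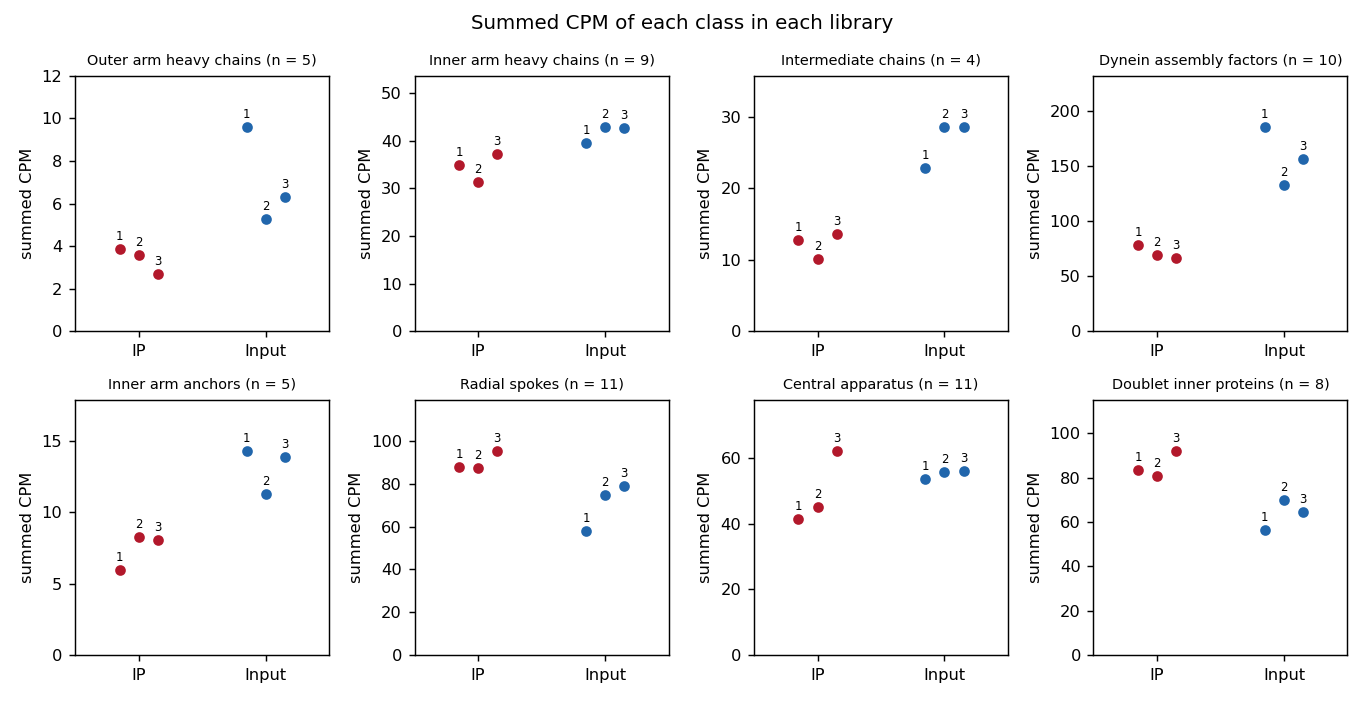
Summed CPM of role classes in every library, IP beside Input, without Foxj1, the other Spag genes and the genes given no role. Summed dynein assembly factors lie at 66.6 to 78.2 CPM in IP and 133 to 186 CPM in Input, most of it Dnaaf9 in Input, and summed radial spoke genes at 87.5 to 95.6 CPM in IP and 57.9 to 79.0 CPM in Input.

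Radial spoke genes were counted in the same way. None of the 11 tested fell or rose by edgeR, none was lower and 1 was higher at an unadjusted p under 0.05, and DESeq2 called none lower and 1 higher. Over all genes, edgeR called 17.1% lower and 12.9% higher, or 23.3% and 18.4% at the unadjusted threshold. DESeq2 called 16.7% and 12.8% of all genes. The median log2 fold change was -0.05. Their summed CPM was 87.5 to 95.6 in IP and 57.9 to 79.0 in Input without overlap, and Rsph9, Rsph3b and Rsph3a were the largest parts of it. Rsph9, a spoke head protein mutated in human primary ciliary dyskinesia (ENSMUSG00000023966, chromosome 17, 46432961 to 46455142, minus strand), had 21.3, 24.1 and 21.5 CPM in IP, against 7.51, 15.6 and 15.4 CPM in Input. Its log2 fold change was 0.80 ± 0.27 (edgeR adjusted p = 0.0576), and with the replicate block it passed at an adjusted p of 0.0131. Exons of Rsph9 overlap Mrps18a on the opposite strand over 25.8% of their bases, and the share of reads this adds was not tested.

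The other spoke head genes were not called. Rsph4a, specific to the spoke heads of motile cilia, had 5.67, 5.96 and 10.2 CPM in IP, against 6.72, 7.22 and 9.88 CPM in Input, with a log2 fold change of -0.12 ± 0.29. Replicate 3 was highest in both groups. Rsph1 had 11.5, 10.8 and 10.98 CPM in IP, against 7.09, 7.35 and 10.2 CPM in Input (edgeR adjusted p = 0.149), so that all IP values lay above all Input values. The stalk genes Rsph3a and Rsph3b, near copies of each other whose shared reads are of uncertain assignment, had log2 fold changes of 0.27 ± 0.16 and 0.49 ± 0.23. Rsph10b, Rsph14, Rsph6a, Cfap61, Cfap91 and Cfap206 had overlapping groups and means of at most 3.0 CPM in IP and 2.97 CPM in Input.

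Central apparatus genes shape the beat from the middle of the axoneme. Of 9 tested, none passed by edgeR, 3 were lower and none higher at an unadjusted p under 0.05, and DESeq2 called 4 lower and none higher of the 11. The shares of all genes lower and higher were 17.1% and 12.9% by edgeR. They were 23.3% and 18.4% at the unadjusted threshold, and 16.7% and 12.8% by DESeq2. Cfap54, whose loss gives hydrocephalus in mice (ENSMUSG00000020014, chromosome 10, 92611481 to 92917480, minus strand), had 1.49, 0.716 and 1.73 CPM in IP, against 3.05, 2.81 and 3.27 CPM in Input. Its log2 fold change was -1.21 ± 0.41 (edgeR adjusted p = 0.0554), and with the replicate block its adjusted p was 0.0371. Cfap221, a partner of Cfap54 in the same projection of the central pair, lay the other way, at 0.810, 3.66 and 3.67 CPM in IP, against 0.348, 1.29 and 1.51 CPM in Input. The groups overlap, with IP above Input within each replicate number. Its adjusted p was 0.177 by edgeR and 0.0345 with the block. Cfap69 and Cfap74, the most abundant of the class, had log2 fold changes of 0.04 ± 0.21 and 0.33 ± 0.25. Cfap65 had 1.56, 1.13 and 1.51 CPM in IP, against 3.84, 1.86 and 3.02 CPM in Input. Its groups do not overlap, and its log2 fold change was -1.05 ± 0.39 (edgeR adjusted p = 0.0761). Of the 9 tested, 6 lay below 0 and 3 above, with a median log2 fold change of -0.60.

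The 3 members that did not pass the low-count filter were lower in IP by their counts. Spag17, a central apparatus gene, had no counts in IP and 56, 10 and 4 counts in Input, at least 21.1-fold lower when 3 counts over the IP group are taken as the floor. Dnaaf6b had no counts in IP, against 22, 4 and 14 counts in Input, at least 12.0-fold lower by the same floor. Spag6 had 4, 4 and 10 counts in IP, against 130, 8 and 37 counts in Input, and Spag6l, its near copy, was at 4.95 ± 1.96 CPM in IP and 6.17 ± 0.419 CPM in Input. Floors cover counting error only, and Input replicate 1 holds most of the Spag17 and Spag6 counts in Input.

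Genes of proteins inside the doublet microtubules were counted next. Of 8 tested, 1 fell and 1 rose, against 17.1% lower and 12.9% higher of all genes tested. Cfap77 had 0.384, 0.347 and 0.322 CPM in IP, against 1.51 CPM in each of the 3 Input libraries, with a log2 fold change of -2.09 ± 0.48 (edgeR adjusted p = 0.0125). Cfap20, which seals the inner junction of the doublet (ENSMUSG00000031796, chromosome 8, 96146877 to 96161497, minus strand), had 68.7, 69.8 and 75.8 CPM in IP, against 42.2, 52.5 and 43.1 CPM in Input, and was higher with a log2 fold change of 0.64 ± 0.14 (edgeR adjusted p = 0.00994). Without Input replicate 3 its adjusted p was 0.0510. Cfap45, Cfap52, Cfap53, Cfap126, Cfap161 and Spag8 did not pass. Without both libraries of replicate 3 the adjusted p was 0.114 for Cfap77 and 0.161 for Cfap20.

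The members higher in IP were all at 2 CPM or more in every library, and none of the 5 belongs to the dynein, spoke or central pair classes. Spag7 (ENSMUSG00000018287, chromosome 11, 70554597 to 70560242, minus strand) had 109, 114 and 103 CPM in IP, against 57.5, 70.1 and 69.0 CPM in Input, with a log2 fold change of 0.73 ± 0.13 (edgeR adjusted p = 0.00473). Cfap20dc, which shares a domain with Cfap20 (ENSMUSG00000021747, chromosome 14, 13803533 to 14038581, plus strand on mm39), had 21.5, 21.7 and 21.9 CPM in IP, against 14.4, 11.2 and 11.6 CPM in Input, with a log2 fold change of 0.81 ± 0.16 (edgeR adjusted p = 0.00749). Both kept the call without any one library. Without both libraries of replicate 3 the adjusted p was 0.0800 for Spag7 and 0.120 for Cfap20dc.

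Spag4, a SUN-domain protein of the nuclear envelope, had 6.55, 9.0 and 7.11 CPM in IP, against 2.80, 2.98 and 4.25 CPM in Input, with a log2 fold change of 1.18 ± 0.27 (edgeR adjusted p = 0.0131). Without IP replicate 2 its adjusted p was 0.0559. Cfap410, a partner of the kinase NEK1 in cilium formation, had 58.4, 65.3 and 64.1 CPM in IP, against 37.5, 49.5 and 44.2 CPM in Input, with a log2 fold change of 0.52 ± 0.14 (edgeR adjusted p = 0.0270). Without an IP library or Input replicate 3 it did not pass, with an adjusted p of up to 0.0907. Its exons overlap Pfkl, a glycolytic enzyme gene on the opposite strand, over 57.9% of their bases, so its counts may hold reads of Pfkl.

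Several other abundant members were not called. Spag9, a scaffold for motor proteins and kinases, was at 293 ± 22.4 CPM in IP and 353 ± 70.7 CPM in Input, and Cfap36, which binds the small GTPase ARL3, at 148 ± 4.70 CPM in IP and 151 ± 18.0 CPM in Input (SD, n = 3 each). Neither passed, nor did Cfap418, a photoreceptor disease gene, or Cfap97. Spag9, Cfap36, Dnaaf9 and Cfap418 made up 56.1% of the summed Input CPM of all members. By contrast 66 members were under 5 FPKM and 51 under 1 FPKM in Input. Among genes given no role, Cfap70 fell, with a mean of 0.238 ± 0.0626 CPM in IP and 1.47 ± 0.739 CPM in Input (edgeR adjusted p = 0.0136), which was 0.0532 without IP replicate 2 and 0.0869 without Input replicate 3.

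Members called lower were mostly of low abundance. The 49 tested members under 5 CPM (mean of the 6 libraries) included 11 lower and none higher by edgeR, with a median log2 fold change of -0.97, and at an unadjusted p under 0.05 they included 20 lower and 1 higher, against 23.1% and 3.9% of all genes under 5 CPM. The 28 members of 5 CPM or more included 2 lower and 5 higher, with a median of -0.04. A rare gene can pass the low-count filter through 1 group alone and then has to differ, so these counts describe the members that passed and support nothing further. Over all genes the median was also lower among rare genes, and the members were therefore set beside genes of like abundance. Under 1 CPM the members' median was -2.09, against -0.44 for all genes, with 5 of 19 lower and none higher against 9.19% and 0.618% of all genes. Between 1 and 5 CPM it was -0.73 against -0.38, with 6 of 30 lower and none higher against 22.1% and 2.35%. Between 5 and 20 CPM it was -0.11 against -0.20, with 1 of 18 lower and 2 of 18 higher against 26.7% and 8.19%. From 20 CPM upward it was 0.00 against 0.13, with 1 of 10 lower and 3 of 10 higher against 14.3% and 25.4% of all genes.

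**Figure D4:**
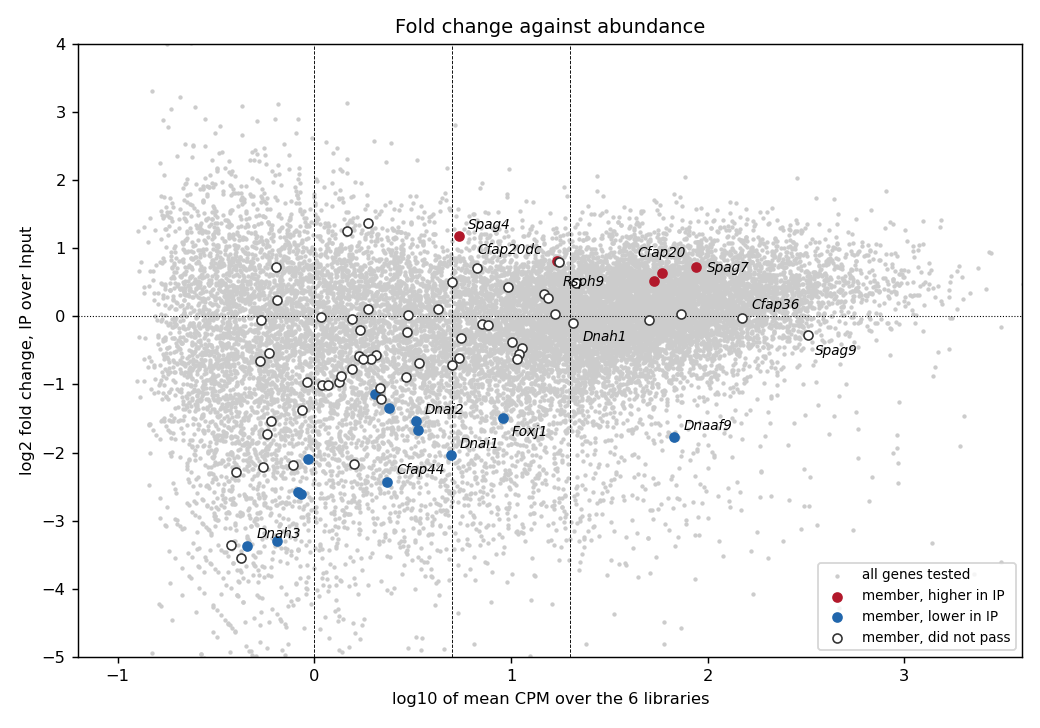
Log2 fold change of IP over Input against the log10 of mean CPM over 6 libraries, members in colour over all tested genes in grey. Dashed lines mark 1, 5 and 20 CPM. Members called lower lie mostly under 5 CPM and the 5 called higher at or above it, and genes beyond the vertical limits are not drawn.

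The median coefficient of variation of the tested members was 22.8% in IP and 25.9% in Input, against 16.9% in IP and 21.3% in Input for all tested genes. Within replicate numbers 1, 2 and 3, the median log2 ratio of IP to Input was -0.46, -0.43 and -0.63 (with 0.1 CPM added to each value), and 49, 52 and 53 of the 77 lay below 0. Input replicate 2 was the lowest Input library for 37 members, Input replicate 1 for 30 and Input replicate 3 for 10. The highest was Input replicate 1 for 30 members, Input replicate 3 for 25 and Input replicate 2 for 22. Summed over all 80 members, Input held 1263, 1164 and 1219 CPM. Choroid plexus markers differed between the pools in another way. Their summed CPM was 33.8, 13.8 and 91.5 in IP, against 61.7, 45.3 and 462 in Input. Both groups were thus highest in replicate 3, where Foxj1 was highest in Input but lowest in IP. Of the 8 such markers tested 1 fell, Clic6, and all 8 lay below 0, against 4 of 8 lower with the replicate block. The share of all genes called lower was 17.1%, and 19.4% with the block. Clic6 passed only without IP replicate 1 or Input replicate 2 when 1 library was left out, with an adjusted p of up to 0.172 otherwise. Their part in the results was not tested.

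Further genes of the motile cilium, with names outside the rule, were counted in the same way. Of 41 tested 8 fell and 1 rose, against 17.1% lower and 12.9% higher of all genes tested. The share lower is thus near the background, and the median log2 fold change was -0.74. Armc3 was at 0.162 ± 0.0631 CPM in IP and 1.48 ± 0.598 CPM in Input (edgeR adjusted p = 0.00778), and Ccdc39, a ruler protein of the doublets, at 3.66 ± 0.386 CPM in IP and 7.38 ± 0.431 CPM in Input (edgeR adjusted p = 0.0110). Nme5 rose, at 15.3 ± 0.285 CPM in IP and 10.1 ± 1.37 CPM in Input (edgeR adjusted p = 0.0336). Without one library the call of Nme5 held only without Input replicate 2, with an adjusted p of up to 0.0944, and that of Ccdc39 was lost without Input replicate 3, at 0.0523. The abundant Tppp3, Efcab1 and Gas8 did not pass.

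Of 13 regulators of multiciliation tested, Foxj1 included, 7 fell and none rose, and with the replicate block 5 fell. Over all genes tested, 17.1% were lower and 12.9% higher, and with the block 19.4% were lower. The block took the calls from Gmnc (adjusted p = 0.0529) and Myb (adjusted p = 0.0987). Rfx4, an RFX factor also expressed by astrocytes, was at 6.54 ± 1.61 CPM in IP and 26.5 ± 2.60 CPM in Input, with a log2 fold change of -2.02 ± 0.22 (edgeR adjusted p = 0.000503). Rfx3 was at 15.1 ± 4.88 CPM in IP and 34.1 ± 14.3 CPM in Input, with an adjusted p of 0.0306, and Rfx2 at 1.49 ± 0.226 CPM in IP and 4.25 ± 1.47 CPM in Input, with an adjusted p of 0.0168, both by edgeR. Gmnc and Myb, which start the programme upstream of Foxj1, fell too, with means under 1 CPM in both groups. Their calls were lost whichever library was left out, with an adjusted p of up to 0.122 for Gmnc and 0.160 for Myb. Rfx3 did not pass without IP replicate 2, IP replicate 3, Input replicate 1 or Input replicate 3, with an adjusted p of up to 0.114, nor Rfx2 without IP replicate 2 or Input replicate 3, with one of up to 0.0844. E2f5 was at 5.25 ± 0.968 CPM in IP and 13.6 ± 2.72 CPM in Input (edgeR adjusted p = 0.00373).

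Genes shared by motile and primary cilia lay on both sides of 0. Of 34 genes of intraflagellar transport and the BBSome, the carriers of cargo along every cilium, 6 fell and 5 rose. Over all genes tested, 17.1% were called lower and 12.9% higher, so these counts lie near the background. Of the 34, 17 lay below 0 and 17 above, with a median log2 fold change of -0.01. Cluap1 was at 30.1 ± 2.91 CPM in IP and 15.6 ± 3.62 CPM in Input (edgeR adjusted p = 0.00836), and Ift122 at 20.9 ± 1.07 CPM in IP and 32.4 ± 1.76 CPM in Input (edgeR adjusted p = 0.00889). Of 16 genes of the primary cilium and its signalling 7 fell and 2 rose. Smo, the Hedgehog transducer, was at 4.31 ± 0.884 CPM in IP and 20.4 ± 1.68 CPM in Input (edgeR adjusted p = 0.000260), while Sstr3, a somatostatin receptor of neuronal cilia, was at 20.3 ± 1.86 CPM in IP and 10.6 ± 2.32 CPM in Input (edgeR adjusted p = 0.00895). Of 7 markers of tanycytes, the stretched ependyma-related cells of the third ventricle, 2 fell, none rose and 2 lay above 0, with a median log2 fold change of -0.39. Vim, which astrocytes also express, was lower, at 7.5 ± 2.27 CPM in IP and 20.5 ± 5.71 CPM in Input (edgeR adjusted p = 0.00638).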

How the data were processed

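Samples were grouped and numbered by their titles. The deposited count table holds whole-number read counts per gene, made by the authors without normalization. The submitters' processing notes name HISAT2, featureCounts, DESeq2 and the mm39 build; tool versions and the strand setting of the counting are not given in the sources used here. The authors also deposited FPKM values, a size-factor normalized signal, log2 fold changes and p-values. FPKM was used for levels between genes, and the authors' calls were counted from their log2 fold changes and adjusted p-values.

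Counts were tested with edgeR 4.0.16 in R 4.3.3 (quasi-likelihood, TMM scaling, filterByExpr by group, group as the one factor, two-sided, Benjamini-Hochberg over 18640 genes, threshold 0.05) after a test on simulated data. The SE is the size of the log2 fold change divided by the square root of F. Same-numbered libraries share a pool of tissue and were treated as paired in an alternative fit. Their deviations from the group means correlated at 0.26, 0.14 and 0.10, against -0.22 to 0.09 for different numbers. Pools of 3 animals vary less than single animals, and reads carry no molecular identifiers.

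The members and lists were chosen with earlier results of these data known. The text names Foxj1, in each role class the 3 most abundant tested members and the 2 with the smallest adjusted p, every member called higher, the 5 members at each end of the log2 fold changes, and in the other lists the 3 most abundant and the 2 with the smallest adjusted p. Other genes, among them Pnoc, Spag17, Spag6, Dnaaf6b, Rsph1, Rsph4a, Dnaaf5, Fam216b, Ccdc39, Nme5, Rfx2, Gmnc, Myb and Sstr3, were named after their values were seen. Dnaaf8, annotated as a pseudogene, and the non-coding Dnah2os match the name pattern but are not protein-coding. Values of 1 marker gene that is no member are not reported here.

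Alternatives were DESeq2 1.42.0, other scalings, other low-count filters, the replicate block, an offset for gene length, and libraries or replicate numbers left out. Exons of 57 of the 80 members overlap another gene in the GENCODE annotation, 17 of them over at least 10% of their bases.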

Additional observations from a re-analysis of the deposited data

How the results depend on the processing

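Of 767 values of the 43 named members under 18 other settings, no called value changed sign, while 25 values of 6 members that were called in neither setting did (Cfap36, Cfap418, Cfap43, Cfap69, Dnah1 and Dnah5). Of these values 655 stayed on their side of the threshold, 77 lost the call and 35 gained it. Counts of calls moved more. DESeq2 called 22 members lower, or 27.5% of them against 16.7% of all genes. Leaving out 1 library gave 6 to 14 members lower and 3 to 6 higher, 2035 to 3080 genes lower and 1417 to 2630 higher, and a members' median of -0.63 to -0.40. Without both libraries of replicate 2, 8 members were lower and 3 higher, and 2095 genes were lower and 1508 higher. Without those of replicate 3, 1 member was lower and 0 higher, and 742 genes were lower and 133 higher. The members' median was -0.44 without replicate 1, -0.42 with a filter of at least 1 CPM and -0.47 with an offset for gene length. Fits with libraries left out rest on fewer samples, and the filter of at least 1 CPM leaves fewer genes. The length offset leaves out neither samples nor genes. The cause of these moves was not tested. With the replicate block, 16 members were lower and 7 higher (12 and 5 of them also called without it), as were 3617 and 2838 of all genes, and with the length offset and the block together 8 members were higher. The length offset took the calls from Dnah12 (adjusted p = 0.0512) and Dnah3 (adjusted p = 0.0561). Without any one library, 6 of the 13 lower members kept their calls (Dnaaf9, Cfap44, Foxj1, Dnai2, Dnai1 and Cfap77), as did 2 of the 5 higher (Spag7 and Cfap20dc). Depth limits the rarest members, since a count of 3 is 0.0551 to 0.0651 CPM.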
